A study of Mus musculus with 42 samples.

Results

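The genes described here are Onecut1, Onecut2, Onecut3, Ebf1, Ebf2 and Ebf3, 6 of the 21938 protein-coding genes of the mouse annotation (GENCODE release 21, mm10). They were chosen as neuronal transcription factor genes and not by any measured value. For each gene, every called binding event that lay inside the gene or within 50 kb of either end was taken from all 21 event lists of the series, and events closer than 100 bp to one another were merged into a site. The windows held 2100 of the 1087512 events of the series, which merged into 455 of 377270 sites.

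The series is a ChIP-seq study of mouse embryonic stem cells (Ainv15 lines) that asked where different HOX transcription factors bind as the cells become spinal motor neurons. Each line carried 1 doxycycline-inducible transgene in single copy at the HPRT locus. Embryoid bodies received 1 µM retinoic acid and 0.5 µM of the smoothened agonist SAG from day 0, doxycycline (3 µg/mL) was added on day 2, and cells were collected on day 3 after 24 h or on day 4 after 48 h of doxycycline. At day 3 there are lists of 7 full-length factors, namely HOXC13, the HOX9 paralogs HOXA9, HOXC9 and HOXD9, and HOXC10, HOXC8 and HOXC6. A further 4 day 3 lists come from chimeric proteins joined from HOXC10 and HOXC13. In HOXC13:C10.1 and HOXC13:C10.2 the homeodomain and C-terminus are those of HOXC10 and the rest is HOXC13, and in HOXC10:C13.1 and HOXC10:C13.2, the reverse chimeras, they are those of HOXC13. The second version of either kind also exchanges a conserved stretch just before the homeodomain. HOXC6, HOXC9 and HOXC10 were also profiled at day 4, and HOXC6 and HOXC9 in embryoid bodies (EB) given 12 h of doxycycline without the patterning signals. The cofactors MEIS (day 3, lines with V5-tagged Hoxc6, Hoxc9 or Hoxc10) and PBX (day 4, lines with Flag-tagged Hoxc9 or Hoxc10) were profiled with antibodies against the proteins themselves. HOX proteins were precipitated through a Flag tag, except that HOXC13, HOXD9 and HOXA9 each have 1 of 2 libraries from an HA-tagged line and 1 of the 3 HOXC10 libraries at day 3 used a V5-tagged line. The HOXC13 cDNA was human. All HOX binding here is therefore that of induced, tagged protein.

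Onecut proteins are transcription factors with a cut domain next to a homeodomain, made in newborn neurons and in liver and pancreas. In spinal motor neurons they take part in keeping the motor neuron gene Isl1 on. Ebf proteins (the COE family) bind DNA as dimers through a zinc-containing domain and a helix-loop-helix region, and drive neuronal differentiation and migration, and in the case of Ebf1 also B cell development. HOX proteins give neurons their position along the body axis. HOXC6 and HOXC8 mark brachial, HOXC9 thoracic and HOXC10 lumbar levels, HOXC13 the caudal end, and MEIS and PBX are homeodomain cofactors that bind DNA beside them.

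Of the 42 samples in 23 groups, 40 libraries enter the lists, and 14 lists pool 2 libraries, 5 rest on 1 library, and HOXC10 rests on 3 libraries at day 3 and 4 at day 4. The libraries held between 5036342 and 32883983 reads, the shallowest being the V5 library of HOXC10, and the lists held between 848 events (PBX) and 128388 events (HOXC9 EB). HOXA9, HOXD9 and HOXC13 libraries share a sequencing run in the labels, and no HOXC9 or HOXC10 library comes from it. Since replicates were pooled before events were called, no value below has a replicate error, and no test between conditions was made here. Shares are given with 95% Wilson intervals, which cover counting error only and treat neighbouring sites as independent, beside the same share over the whole list. Values at a site are RPM, the reads estimated at the event divided by the reads of the pooled libraries and multiplied by 1000000. Whether a longer list reflects more binding, a better antibody or deeper sequencing cannot be told apart. The files hold no expression values, so the cell type could not be checked against its markers.

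The 6 genes lay in densely bound DNA, with Onecut3 as the exception. The median was 30.5 sites per 100 kb, against 11.7 for protein-coding genes. Ebf3 had 115 sites (52.1 per 100 kb), more per length than 99.7% of coding genes. Onecut1 (45 sites) and Ebf1 (165 sites) followed with 34.7 and 33.6 per 100 kb, denser than 98.9% and 98.7% of genes. Onecut2 (44 sites, 27.3 per 100 kb) and Ebf2 (69 sites, 23.2 per 100 kb) exceeded 96.4% and 92.4% of genes. Onecut3 had 17 sites (13.9 per 100 kb), a density that 62.9% of genes fell short of, in a window that also holds Atp8b3, Rexo1 and Klf16.

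The sites near the 6 genes were shared by more factors than sites elsewhere. Of the 455 sites, 93 (20.4%) carried an event in at least 8 of the 16 HOX lists, against 7.62% of all sites in the genome. Such broadly shared sites numbered 34 near Ebf1, 33 near Ebf3, 12 near Ebf2, 8 near Onecut1, 6 near Onecut2 and 0 near Onecut3. All 7 full-length factors at day 3 met at 13 sites (2.86%, against 0.844% of all sites): 7 near Ebf1 and 2 each near Onecut2, Ebf2 and Ebf3. At the other end, 160 sites (35.2%, against 45.8%) were seen in 1 list only.

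**Figure D1:**
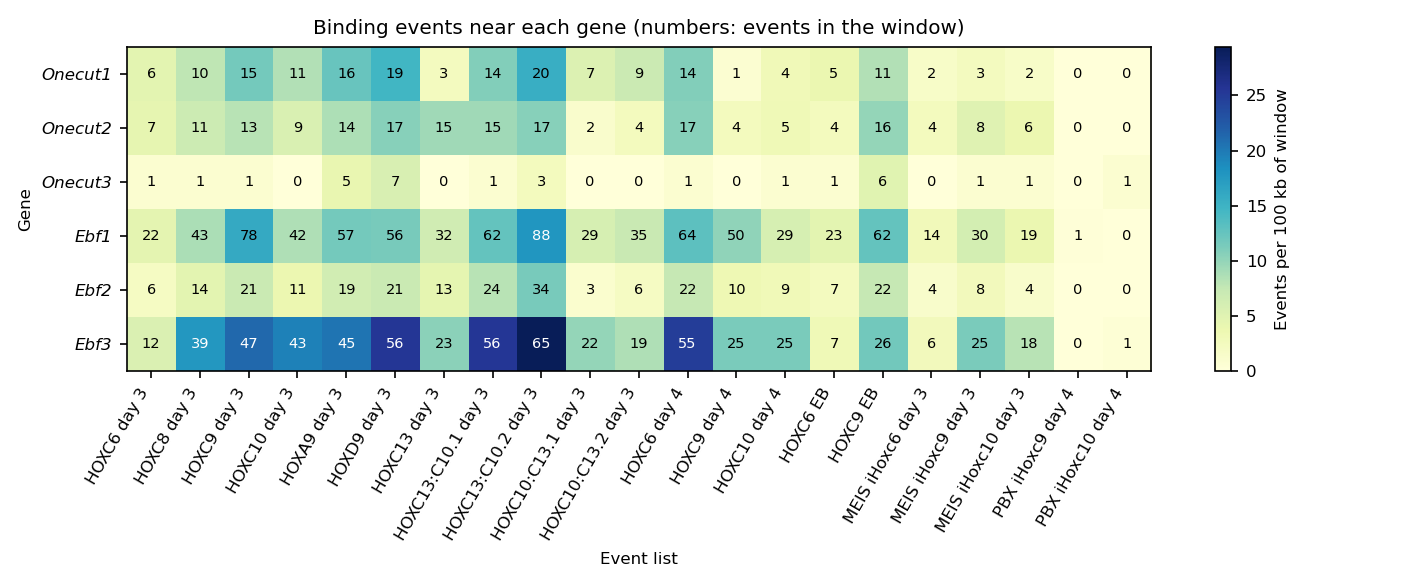
Events called near each of the 6 genes (rows) in each of the 21 lists (columns). Colour gives events per 100 kb of window and the number in each cell is the count of events; the Ebf1 and Ebf3 rows hold the highest counts, the Onecut3 row stays at 7 events or fewer, and the PBX columns hold 1 and 2 events in all.

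Most sites lay in introns. Of the 455, 322 fell in an intron and 19 in an exon of the 6 genes, 84 were intergenic, and 15 lay within 1 kb of an annotated transcript start of one of them. The Ebf genes were bound inside the gene, with 153 of 165 sites of Ebf1, 59 of 69 of Ebf2 and 93 of 115 of Ebf3 within the gene span. The much shorter Onecut genes had most of their sites outside it, where most of their windows lay. The span took up 391 of 491 kb of the window for Ebf1, 198 of 298 kb for Ebf2 and 121 of 221 kb for Ebf3. For Onecut1, Onecut2 and Onecut3 it was 29.9 of 130 kb, 61.0 of 161 kb and 22.4 of 122 kb. The part of span length in the contrast was not tested. Onecut1 had 23 sites upstream, 15 inside and 7 downstream, Onecut2 had 12, 19 and 13, and Onecut3 had 9, 2 and 6. The nearest start of any coding gene was that of the gene itself for 40 of 45 Onecut1, 30 of 44 Onecut2 and 6 of 17 Onecut3 sites, and for 165 of 165, 66 of 69 and 115 of 115 sites of Ebf1, Ebf2 and Ebf3. Which gene a site acts on was not measured.

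**Figure D2:**
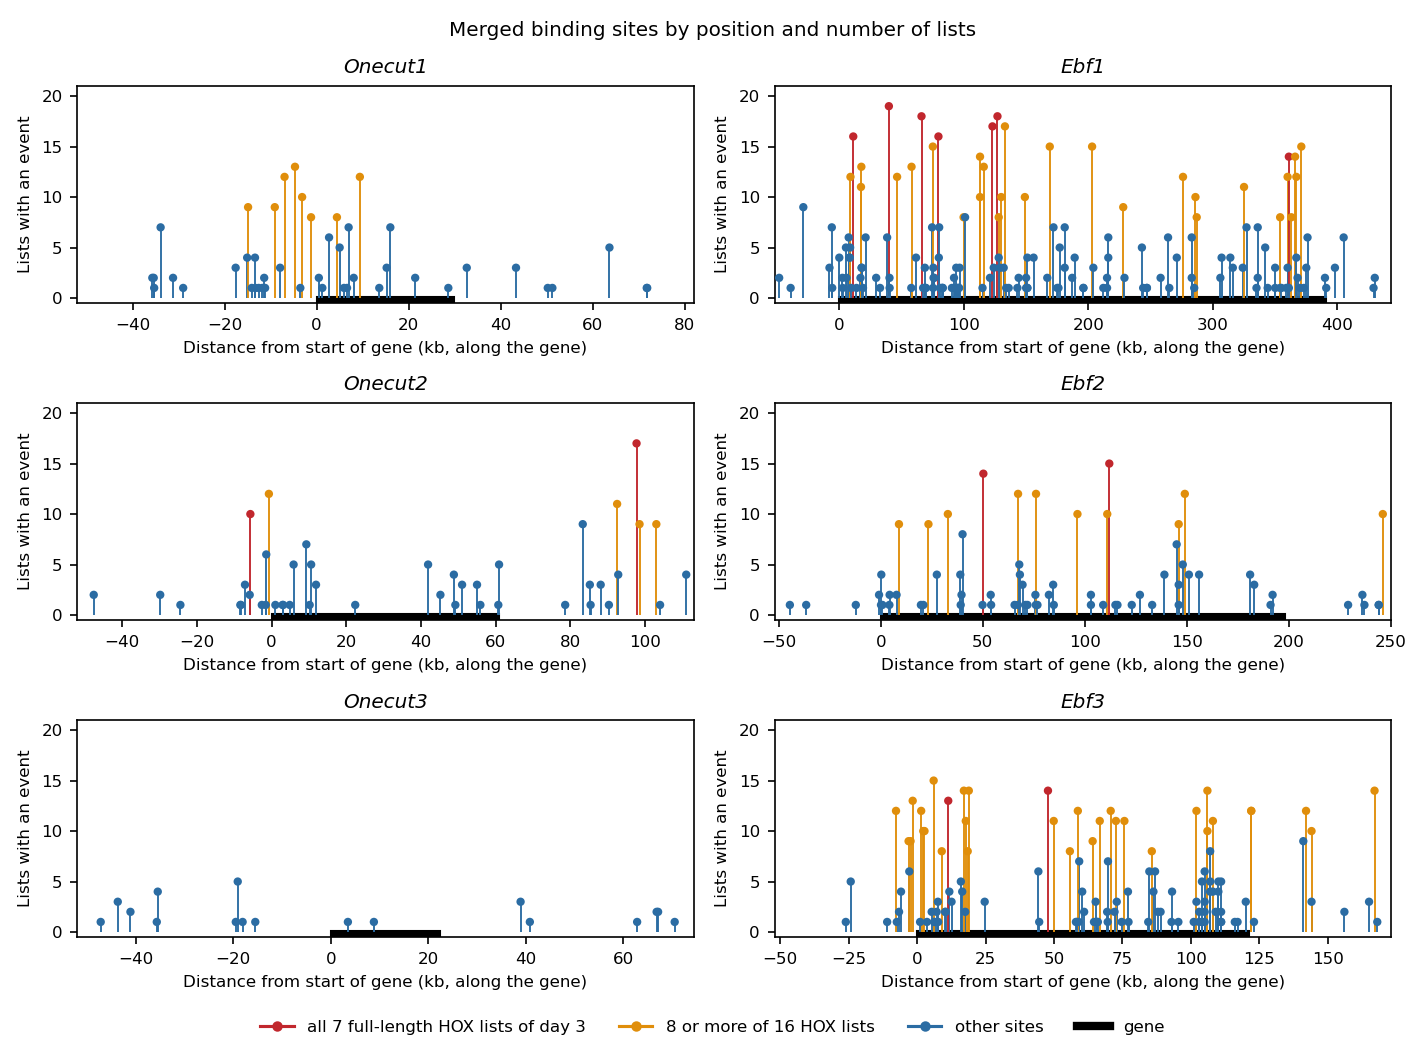
Number of lists (of 21) with an event at each merged site, plotted against the distance in kb from the gene's annotated start, 1 panel per gene, with the gene as a black bar. Red marks sites of all 7 full-length factors at day 3 and orange other sites in at least 8 of the 16 HOX lists; the red sites of Ebf1, Ebf2 and Ebf3 fall inside the gene, whereas Onecut2 has its red sites at −5.67 and +97.7 kb, outside the gene.

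Ebf1 (chr11:44617317-45008091, plus strand, ENSMUSG00000057098.14) had 836 events. Its outstanding element was an intronic site 39.8 kb into the gene, which was called in all 16 HOX lists and all 3 MEIS lists and was the strongest Ebf1 site in 10 of the 16 HOX lists. Its 101 bp around the HOXC6 day 4 position (chr11:44657069-44657169) are printed here because no other site of the 6 genes was called in as many lists. In this and all following sequences (mm10, plus strand, 5′ to 3′) capitals mark the letters TAAT and TTTAT, and also TTTAC and the MEIS core TGACAG, on either strand.
Ebf1 +39.8 kb: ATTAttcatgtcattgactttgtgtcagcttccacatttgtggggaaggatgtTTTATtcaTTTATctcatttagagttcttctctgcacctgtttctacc
The window holds 2 TTTAT and 1 TAAT. The RPM at this site in the full-length factors at day 3 ran from 23.7 (HOXC8), 22.9 (HOXC9), 19.0 (HOXC6) and 18.2 (HOXA9) through 13.7 (HOXC10) and 12.7 (HOXD9) to 2.51 (HOXC13). HOXC13 stood apart as the low factor, with the site at rank 29307 of its events, while the other 6 had it between rank 131 (HOXC6) and rank 969 (HOXC9). With the HOXC10 homeodomain on the HOXC13 N-terminus the value was 16.7 (HOXC13:C10.1) and 34.1 (HOXC13:C10.2), and in the reverse chimeras 3.44 and 3.61. By rank the difference was smaller, with the site at 630 for HOXC13:C10.2, 4114 for HOXC13:C10.1, 5011 for HOXC10:C13.1 and 6912 for HOXC10:C13.2. The signal fractions of the chimera libraries were 0.320 to 0.527 with the HOXC10 homeodomain and 0.134 to 0.201 with that of HOXC13, and their part in these values was not tested. At day 4 it was 74.9 for HOXC6 (rank 107), 7.24 for HOXC9 and 3.72 for HOXC10. In EBs it was 7.69 for HOXC6 and 5.72 for HOXC9, and MEIS gave 18.1, 22.8 and 19.6 in the Hoxc6, Hoxc9 and Hoxc10 lines.

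Further Ebf1 introns were bound by a wide set of factors. The site 66.0 kb into the gene was called in 18 lists, MEIS in all 3 lines included, and was the strongest Ebf1 site of HOXC10 at day 4 (4.72 RPM, rank 460). The site at +127 kb, also in 18 lists, was the strongest one for HOXC13 (4.52, rank 14347), and the site at +123 kb (17 lists) the strongest for HOXC10:C13.1 (4.27, rank 3150). The site at +75.1 kb (15 lists) led in HOXC9 at day 4 (20.2, rank 645) and in MEIS of the Hoxc9 line (46.1, rank 278). The leading Ebf1 site thus varied with factor and stage, even though most lists shared these sites. Right at the Ebf1 start, −0.006 kb, there was a weak site in 4 lists (HOXC9, HOXA9, HOXD9 and HOXC13:C10.2), with a best rank of 18071.

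A further 3 Ebf1 sites are shown for the condition that picks them out. The site at +149 kb (chr11:44766313-44766413), called in 10 HOX lists, was the highest-ranked HOXC9 site without HOXC10 among 78 such sites, and the site at +187 kb (chr11:44804093-44804193) was seen in EBs alone. The site at +79.9 kb (chr11:44697162-44697262) carried HOXC6 without HOXC9 or HOXC10, but lies 159 bp from the site at +79.6 kb that all 7 full-length factors shared at day 3, and merging at 200 bp would join them.
Ebf1 +149 kb: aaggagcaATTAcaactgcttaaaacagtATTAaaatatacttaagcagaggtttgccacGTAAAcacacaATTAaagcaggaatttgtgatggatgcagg
Ebf1 +187 kb: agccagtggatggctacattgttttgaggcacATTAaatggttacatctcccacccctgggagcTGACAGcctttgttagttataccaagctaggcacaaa
Ebf1 +79.9 kb: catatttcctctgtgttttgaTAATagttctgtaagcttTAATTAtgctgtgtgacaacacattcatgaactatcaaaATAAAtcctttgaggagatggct
At +149 kb HOXC9 had 38.4 RPM in EBs (rank 865), 8.43 at day 3 and 2.42 at day 4, and HOXC6 had 1.50 at day 3 and no EB event. The 101 bp hold 3 TAAT, 1 TTTAC and no TTTAT. At +187 kb HOXC6 had 16.0 (rank 2432) and HOXC9 11.4 (rank 7038) in EBs, and none of the 19 other lists had an event. This window holds the MEIS core letters TGACAG and 1 TAAT. At +79.9 kb the HOXC6 value was 2.52 at day 3 and 9.03 at day 4, with HOXC8 at 2.64 and HOXC13:C10.2 at 2.15. That window holds 3 TAAT, a pair of them overlapping in TAATTA, and 1 TTTAT.

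Ebf2 (chr14:67233292-67430918, plus strand, ENSMUSG00000022053.13) had 258 events. In its introns stood the site that HOXC9 ranked highest near any of the 6 genes at day 3, 50.3 kb from the start (chr14:67283557-67283657), shown here for the wide range of values between factors.
Ebf2 +50.3 kb: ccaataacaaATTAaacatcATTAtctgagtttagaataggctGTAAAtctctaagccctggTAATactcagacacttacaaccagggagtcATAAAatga
At +50.3 kb HOXC9 had 56.5 RPM (rank 80), HOXA9 15.7, HOXC8 8.03, HOXC13 4.74, HOXD9 3.92, HOXC10 3.10 and HOXC6 2.03. By difference in RPM, both other HOX9 paralogs, HOXA9 and HOXD9, were thus closer to HOXC10 and HOXC13 than to HOXC9. By rank this did not hold for HOXA9 (rank 601), which was closer to HOXC9 than to HOXC10 (rank 6482) or HOXC13 (rank 13525). HOXD9 (rank 5996) was closest to HOXC10 of these 3. The chimeras with the HOXC13 N-terminus had 78.1 (HOXC13:C10.1, rank 129) and 29.4 (HOXC13:C10.2), more than either full-length parent, while HOXC10:C13.2 had 1.21 and HOXC10:C13.1 no event. HOXC9 kept 28.1 at day 4 (rank 268) and had 8.64 in EBs. HOXC6 had 6.12 at day 4, HOXC10 had no event at day 4, and MEIS was called in the Hoxc9 line alone (7.86).

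Ebf3 (chr7:137193673-137314445, minus strand, ENSMUSG00000010476.14) had 615 events and the densest binding of the 6 genes. No single element led: the strongest Ebf3 site was the same in at most 4 of the 16 HOX lists, at +167 kb. That site lies downstream of the gene (chr7:137147338-137147438) and is shown as the highest-ranked Ebf3 site of HOXC10 and HOXC9 at day 3, beside the intronic site at +6.07 kb (chr7:137308304-137308404), which was called in 15 lists.
Ebf3 +167 kb: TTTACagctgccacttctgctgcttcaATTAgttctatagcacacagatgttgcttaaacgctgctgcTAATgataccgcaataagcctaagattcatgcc
Ebf3 +6.07 kb: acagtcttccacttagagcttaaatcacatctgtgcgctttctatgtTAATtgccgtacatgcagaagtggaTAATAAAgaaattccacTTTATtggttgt
At +167 kb HOXC9 had 19.6 RPM (rank 1394), HOXC10 8.49 (rank 854), HOXA9 7.23, HOXD9 5.63, HOXC8 4.37 and HOXC6 1.24, and HOXC13 and both chimeras with its homeodomain had no event. MEIS was called there at 12.2 in the Hoxc9 line and 6.60 in the Hoxc10 line, not in the Hoxc6 line. The window holds 2 TAAT and 1 TTTAC. At +6.07 kb HOXC9 had 11.8, HOXC10 3.86, HOXA9 3.64, HOXD9 2.04, HOXC8 2.02 and HOXC13 0.826. HOXC6 had no event there at day 3 and 3.72 at day 4. Its 2 TTTAT and 2 TAAT include TAATAAA, where both overlap.

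Ebf3 also had the most sites near transcript starts. The site at +47.8 kb, 894 bp from an internal transcript start, was called in 14 HOX lists, all 7 full-length factors at day 3 among them, and the site at +1.52 kb in 12. HOXC10 placed 17 of its 43 Ebf3 events among its 10000 highest-ranked events, and HOXC9 placed 3 of 47. These counts compare ranks within lists of unequal length: the top 10000 are 37.2% of the HOXC10 list and 13.5% of the HOXC9 list.

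Onecut1 (chr9:74861921-74891781, plus strand, ENSMUSG00000043013.10) had 172 events and no site of all 7 factors, HOXC13 having only 3 events in the window. Its most widely called site lay at −4.71 kb from the start, inside the noncoding gene Gm16551 (chr9:74857157-74857257). It is printed together with a downstream site at +32.6 kb (chr9:74894416-74894516), which the reverse chimeras bound and no full-length factor at day 3 did.
Onecut1 −4.71 kb: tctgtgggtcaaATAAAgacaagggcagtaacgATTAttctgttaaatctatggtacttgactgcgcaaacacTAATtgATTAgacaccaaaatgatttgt
Onecut1 +32.6 kb: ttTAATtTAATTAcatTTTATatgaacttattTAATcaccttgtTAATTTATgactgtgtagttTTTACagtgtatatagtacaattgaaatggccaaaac
At −4.71 kb HOXC8 had its event at rank 1548, with 531 estimated reads. HOXC6 had 2.74 RPM, HOXA9 2.53, HOXC9 1.78 and HOXD9 1.43, and HOXC10 and HOXC13 had no event at day 3. At day 4 HOXC6 had 10.4, HOXC9 2.75 and HOXC10 0.819 (rank 19236). At day 3 the parents HOXC10 and HOXC13 thus lacked an event, while the chimeras with the HOXC10 homeodomain had 8.25 and 9.93, and the reverse ones 1.48 and 1.26. At +32.6 kb HOXC10:C13.2 had 3.51 (rank 7370), HOXC10:C13.1 had 2.17, and the only other list was HOXC9 EB at 0.807. This window is 22.8% GC and holds 5 TAAT, 2 TTTAT and 1 TTTAC. The strongest Onecut1 site of MEIS was the same in all 3 lines, at −6.98 kb, with 3.09, 7.12 and 4.71 in the Hoxc6, Hoxc9 and Hoxc10 lines. Within the first coding exon, at +0.470 kb, an event was called for HOXC10 at day 4 (1.35) and for HOXD9 at day 3 (1.00).

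Onecut2 (chr18:64340020-64400987, plus strand, ENSMUSG00000045991.19) had 188 events, and its main site was intergenic, 97.7 kb from the start and past the 3′ end of the gene, with the start of Fech nearer, at 52.5 kb. It was called in 17 lists and was the strongest Onecut2 site in 12 of the 16 HOX lists. Of the day 3 lists HOXC9 had the highest value, 35.8 RPM, before HOXC8 at 29.9. HOXA9 (17.6), HOXC10 (17.5, rank 90) and HOXC13 (14.9) lay between, and HOXD9 (9.08) and HOXC6 (6.86) were lowest. HOXC13 was within the range of the other factors here, and its rank of 2471 was the best it had at any site of the 6 genes. The HOXC10:C13 chimeras did not follow HOXC13 there, with 2.10 for HOXC10:C13.2 and no event for HOXC10:C13.1, and HOXC13:C10.1 and HOXC13:C10.2 had 29.2 and 31.8. MEIS had 3.71 in the Hoxc6 line and 7.52 in the Hoxc9 line. This merged site spans 365 bp. HOXC13 without any other full-length factor was called at 32 of the 455 sites of the 6 genes, and at 83759 of 377270 in the genome. The highest-ranked of the 32 was in a UTR of Onecut2, at +51.0 kb (4.18, rank 15868), with 0.851 and 1.18 for HOXC10:C13.1 and HOXC10:C13.2. A site at −0.714 kb from the Onecut2 start was called in 12 HOX lists.

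Onecut3 (chr10:80494835-80517276, plus strand, ENSMUSG00000045518.8) had the fewest events of the 6 genes. It had 31, 10 of its 17 sites came from 1 list, and none of its HOX events was among the 10000 highest of its list. The most widely called site, at −19.1 kb, was in 5 lists with values from 0.886 to 1.11 RPM. The highest-ranked event of a full-length factor at day 3 was 66.8 kb from the start, for HOXC6 (1.42, rank 13676). In EBs HOXC9 had a stronger event at −35.7 kb (7.83, rank 11698), seen in no other list. HOXD9 and HOXA9 gave the most day 3 events, 7 and 5, a density above that of 92.1% and 86.6% of coding genes in those lists. The highest-ranked event of the window apart from PBX was for MEIS in the Hoxc10 line, at −18.1 kb (8.56, rank 2141), where no HOX event was called. These ranks come from lists of unequal length, 12982 events for this MEIS list and 128388 for HOXC9 EB.

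**Figure D3:**
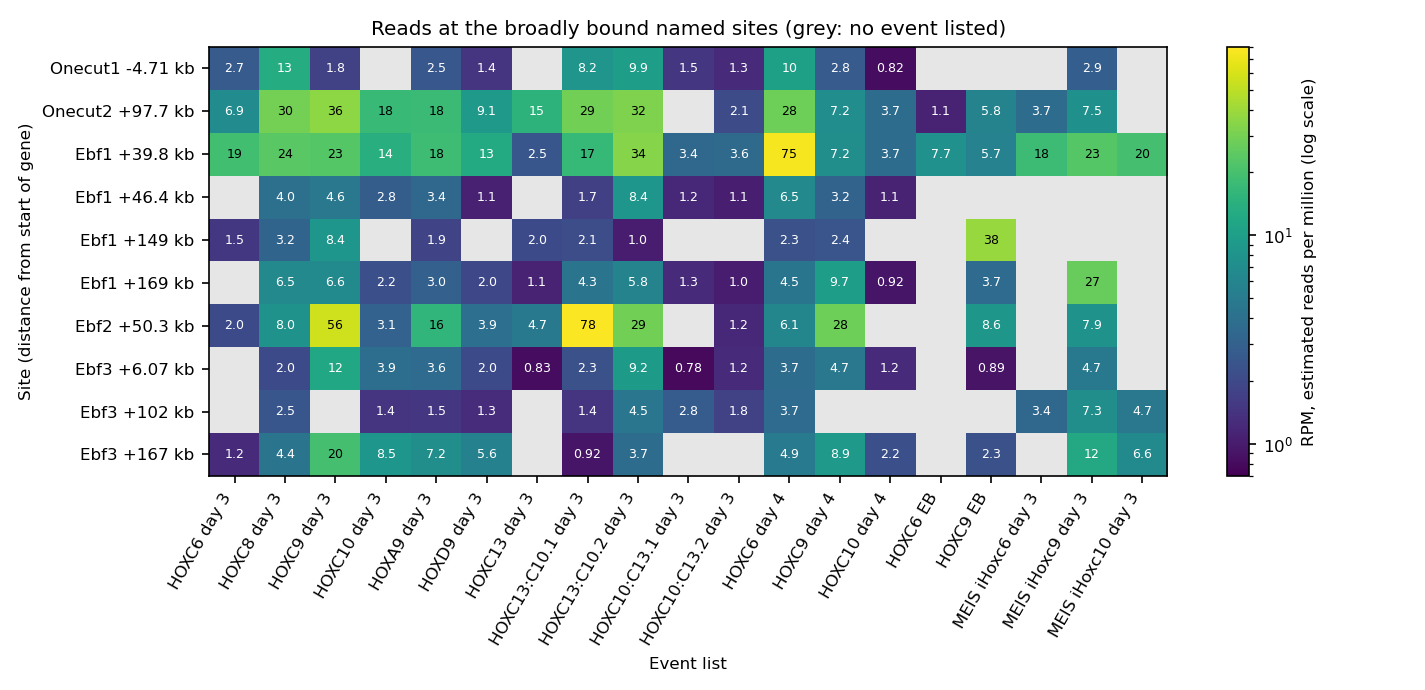
RPM (log colour scale) at 10 named sites called in at least 9 lists (rows) in the 16 HOX and 3 MEIS lists (columns); grey means no event. The highest values are 78.1 for HOXC13:C10.1 at Ebf2 +50.3 kb and 74.9 for HOXC6 day 4 at Ebf1 +39.8 kb.

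HOXC6, HOXC9 and HOXC10 are the factors of successive spinal levels, and their day 3 lists were compared at the 6 genes first. HOXC9 had 175 events (78 near Ebf1, 47 near Ebf3, 21 near Ebf2, 15, 13 and 1 near Onecut1, Onecut2 and Onecut3), HOXC10 had 116 and HOXC6 had 54. HOXC9 and HOXC6 had events at all 6 genes and HOXC10 at all but Onecut3. By comparison 70.4%, 45.5% and 46.9% of coding genes had an event of HOXC9, HOXC6 and HOXC10 within the same distance. By merged sites, 38 carried all 3 factors, 49 HOXC9 and HOXC10, 72 HOXC9 alone of the 3, 24 HOXC10 alone, and 6 each HOXC6 alone and HOXC6 with HOXC9. A further 2 carried HOXC6 and HOXC10 without HOXC9. Of the 377270 sites in the genome, 8560 carried all 3, 13393 HOXC9 and HOXC10 without HOXC6, and 45258 HOXC9 alone of the 3. HOXC10 without HOXC9, with or without HOXC6, was at 26 sites here and at 4508 in the genome. Genome counts of the other classes are not given here.

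HOXC9 and HOXC10 shared a larger part of the HOXC9 sites at these genes than across the genome. Of the 175 HOXC9 events 92 had a HOXC10 event within 100 bp (52.6%, 45.2 to 59.8), against 30.4% of the whole list. Ebf3 (29 of 47), Onecut1 (9 of 15) and Onecut2 (7 of 13) had higher shares than Ebf1 (38 of 78) and Ebf2 (9 of 21). Seen from HOXC10 there was no such excess: 88 of 116 events (75.9%, 67.3 to 82.7) had HOXC9, against 81.3%. Limited to the top 10000 events of each list, the 2 shares became 64.3% (18 of 28) and 39.5% (17 of 43), against 46.2% and 43.3% of all top events. With only the HOXC9 list cut, to the length of the HOXC10 list, 40.5% of HOXC10 events had HOXC9 (47 of 116, against 48.7%). The share of HOXC10 events with HOXC9 thus varied with how far down the HOXC9 list was taken. Ebf3 held 14 of the 28 HOXC10 events without HOXC9.

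Most HOXC6 events were inside the set of the other factors. Of 54 HOXC6 events, 51 had a HOXC8 event (94.4%, 84.9 to 98.1, against 90.2%), 44 a HOXC9 event (81.5%, 69.2 to 89.6, against 69.8%) and 38 a HOXC10 event (70.4%, 57.2 to 80.9, against 50.6%). With the HOXC9 list cut to the length of the HOXC6 list the share with HOXC9 was 50.0% (against 35.3%), and with the top 10000 of both 34.4% (11 of 32, against 33.6%). Of the HOXC9 events 26.3% had HOXC6 (20.3 to 33.3, against 17.3%). Of the HOXC10 events 32.8% had HOXC6 (24.9 to 41.7, against 33.5%), so seen from HOXC10 there was no excess. All 6 HOXC6 events of Onecut1 also carried HOXC8 and HOXC9, and 5 carried HOXC10.

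Of the HOX9 paralogs, HOXA9 and HOXD9 had 156 and 176 events, close in number to HOXC9. With HOXC9 they shared 76.9% (69.7 to 82.8, against 67.4%) and 63.1% (55.7 to 69.8, against 55.5%) of these, and 99 merged sites carried all 3. HOXC9 alone of the 3 was called at 39 sites (20 near Ebf1), HOXD9 alone at 33 and HOXA9 alone at 7. Genome counts of these classes are not given here. At the Onecut genes HOXD9 had the most events, 19, 17 and 7 near Onecut1, Onecut2 and Onecut3, against 16, 14 and 5 for HOXA9 and 15, 13 and 1 for HOXC9. Of the HOXA9 events 80.8% had HOXD9 (73.9 to 86.2, against 66.2%). Seen from HOXD9 there was no such excess, with 71.0% of its events having HOXA9 (63.9 to 77.2, against 73.5%). HOXA9 and HOXD9 came from the same run and each pooled a Flag with an HA library, whereas HOXC9 was Flag only, and the part of this in the pattern was not tested.

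HOXC13 had fewer events at the 6 genes for the length of its list than HOXC9 or HOXC10. Only 86 of its 115879 events (0.0742%) fell in the windows, against 0.236% for HOXC9 and 0.432% for HOXC10, and only 3 of them were among its 10000 highest. Onecut2 had 15, against 13 for HOXC9, but Onecut1 had 3 and Onecut3 had 0. Against coding genes in the HOXC13 list, the density was still above that of 96.5% at Ebf3 and 94.9% at Onecut2. It was above 86.3% at Ebf1, 71.6% at Ebf2 and 46.7% at Onecut1. The HOXC13 events that were there often lay on sites of other factors: 45 of 86 had HOXC9 (52.3%, 41.9 to 62.6, against 22.1%) and 26 had HOXC10 (30.2%, 21.5 to 40.6, against 7.46%). By gene, HOXC9 was at 16 of 23 HOXC13 events near Ebf3 and 19 of 32 near Ebf1, and at 5 of 15 near Onecut2. Among the 175 HOXC9 events 26.3% had HOXC13 (20.3 to 33.3, against 34.7%), and among its 28 top events 1 had one of the 3 top HOXC13 events (3.57%, against 18.9%). Among the 116 HOXC10 events 22.4% had HOXC13 (15.8 to 30.8, against 31.6%). Seen from HOXC9 and HOXC10 the shares with HOXC13 were thus below those of the lists.

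The chimeras divided by the origin of their homeodomain in how many events they had at the 6 genes. HOXC13:C10.1 and HOXC13:C10.2, with the HOXC10 homeodomain, had 172 and 227 events (0.173% and 0.260% of their lists), and the reverse pair had 63 (HOXC10:C13.1) and 73 (HOXC10:C13.2), or 0.102% and 0.0846%. HOXC13:C10.2 had the most of any list, 88 near Ebf1, 65 near Ebf3, 34 near Ebf2 and 20, 17 and 3 near Onecut1, Onecut2 and Onecut3. The Onecut2 counts were 15 and 17 for the chimeras with the HOXC10 homeodomain and 2 and 4 for the reverse ones, although HOXC13 itself had 15.

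The sites of the chimeras resembled those of both parents to different degrees. HOXC13:C10.2 was present at 105 of 116 HOXC10 events (90.5%, 83.8 to 94.6, against 92.9%) and HOXC13:C10.1 at 79 (68.1%, 59.2 to 75.9, against 73.7%). Of the HOXC13:C10.2 events, 112 of 227 had HOXC10 (49.3%, 42.9 to 55.8, against 31.3%) while 46 had HOXC13 (20.3%, 15.6 to 26.0, against 28.5%). For HOXC13:C10.1 the shares were 49.4% with HOXC10 (42.0 to 56.8, against 21.9%) and 30.8% with HOXC13 (24.4 to 38.1, against 37.5%). Limited to the 10000 highest events of both lists, 79.5% (35 of 44, against 63.3% of all top events) of HOXC13:C10.2 and 77.8% (14 of 18, against 33.2%) of HOXC13:C10.1 events had HOXC10. With HOXC13 these were 4.55% (against 14.0%) and 16.7% (against 24.8%), where HOXC13 had only 3 top events in the windows. Over all events, both shares with HOXC10 thus lay above those of the lists, and with HOXC13 the share of HOXC13:C10.2 lay below its list and that of HOXC13:C10.1 had its list value inside the interval.

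The reverse chimeras kept sites of both factors. Of the HOXC10:C13.1 events 57.1% had HOXC10 (36 of 63, 44.9 to 68.6, against 10.205%) and 47.6% had HOXC13 (35.8 to 59.7, against 49.5%). For HOXC10:C13.2 these were 45.2% (33 of 73, 34.3 to 56.6, against 7.89%) and 56.2% (44.8 to 67.0, against 47.0%). Most of the events with HOXC10 lay near Ebf3 (16 of 22) and Ebf1 (17 of 29) for HOXC10:C13.1, and near Ebf3 (11 of 19) and Ebf1 (16 of 35) for HOXC10:C13.2. Near Onecut1 the counts were 1 of 7 and 2 of 9 and near Onecut2 0 of 2 and 1 of 4, too few to compare with the lists. Only 7 and 5 events of these chimeras were among their 10000 highest, and since HOXC13 itself had only 3 such events in the windows, the shares with HOXC13 could not be read at that limit. The highest-ranked HOXC10:C13.1 site without HOXC13 was in an Ebf3 intron at +102 kb (2.77, rank 7653), with HOXC10 at 1.44 and MEIS in all 3 lines.

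**Figure D4:**
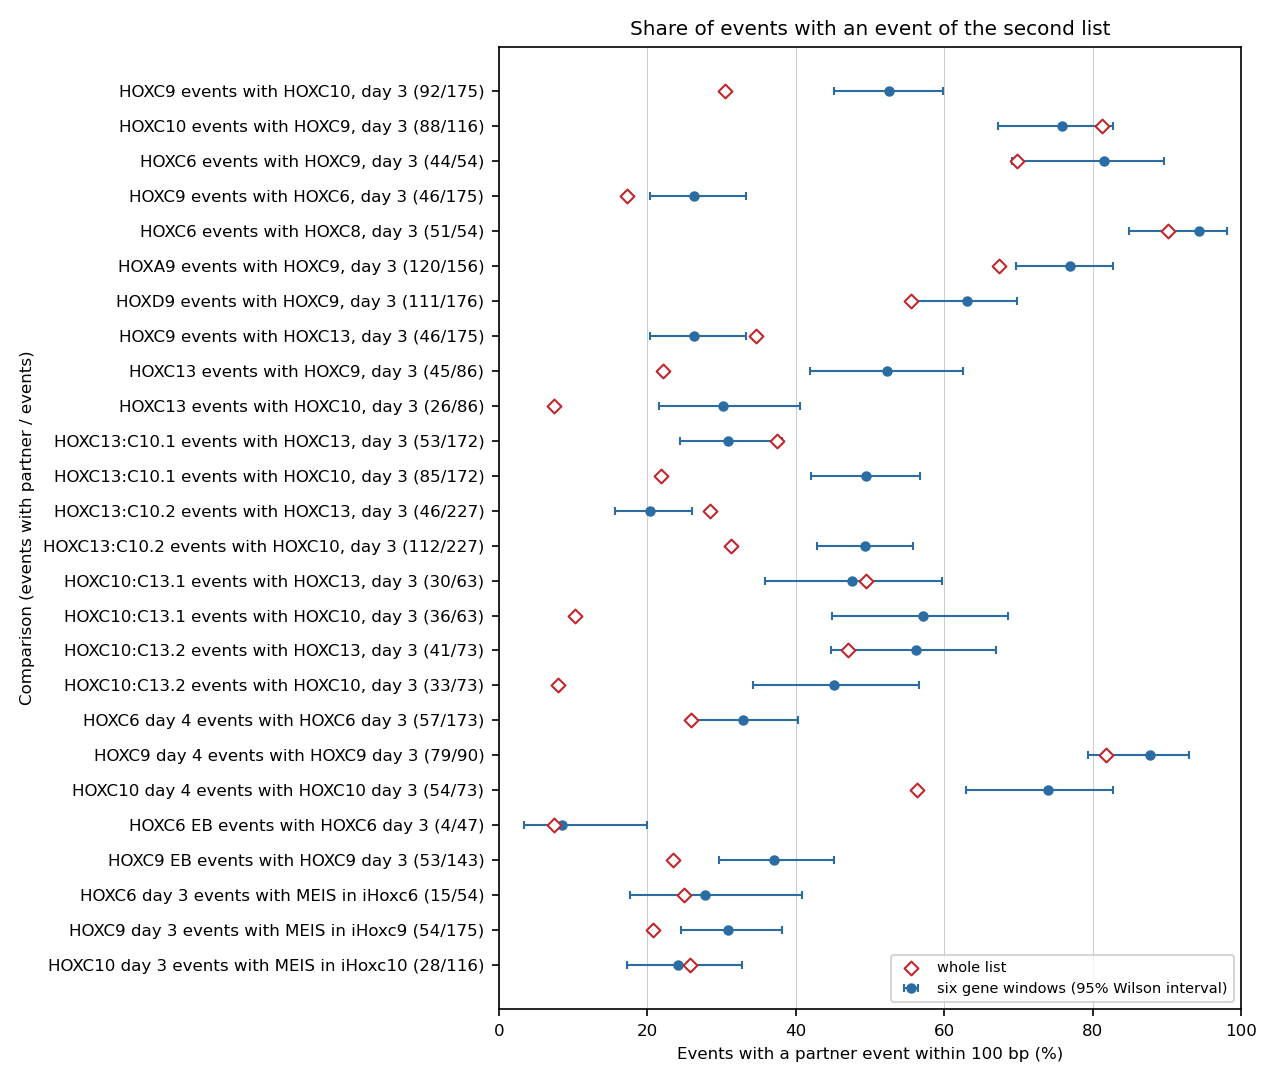
Share of events of the first list with an event of the second list within 100 bp, for 26 comparisons: points are the windows of the 6 genes with 95% Wilson intervals and diamonds the whole list. The points of HOXC10:C13.1 and HOXC10:C13.2 with HOXC10 (57.1% and 45.2%) lie farthest above their diamonds (10.205% and 7.89%). The shares of HOXC10 events with these chimeras, not drawn, were 31.0% and 28.4%, against 23.3% and 25.1% of the HOXC10 list.

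From day 3 to day 4 the event numbers at the 6 genes went up for HOXC6 and down for HOXC9 and HOXC10. HOXC6 had 54 events at day 3 and 173 at day 4, and 53 of the 54 had a day 4 event, against 92.4% of the whole day 3 list. The highest-ranked of its 105 day 4 sites without day 3 lay 46.4 kb into Ebf1 (6.53 RPM, rank 10293), where HOXC8, HOXC9, HOXC10, HOXA9 and HOXD9 had events at day 3 already. The number was higher at 5 of the 6 genes: 12 and 55 events near Ebf3, 22 and 64 near Ebf1, 6 and 22 near Ebf2, 7 and 17 near Onecut2 and 6 and 14 near Onecut1, with 1 at both days near Onecut3. The whole list grew as well, from 17900 to 69297 events, and 25.9% of its day 4 events had a day 3 event, against 32.9% (26.4 to 40.3) at the 6 genes. The signal fraction that MultiGPS gave for the HOXC6 libraries was 0.070 to 0.080 at day 3 and 0.304 to 0.311 at day 4, and its part in the difference was not tested. Of the 27 day 4 events in the top 10000, 21 had a day 3 event that was itself in the day 3 top 10000 (77.8%, against 73.3%).

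HOXC9 had 175 events at day 3 and 90 at day 4, and HOXC10 had 116 and 73. For HOXC9 the ratio was lowest at the Onecut genes, with 15 and 1 event near Onecut1, 13 and 4 near Onecut2 and 1 and 0 near Onecut3, against 78 and 50 near Ebf1, 21 and 10 near Ebf2 and 47 and 25 near Ebf3. HOXC10 had 11 and 4 near Onecut1, 9 and 5 near Onecut2 and 42 and 29 near Ebf1. Only 1 of 15 day 3 HOXC9 events near Onecut1 had a day 4 event, while 44 of 78 near Ebf1 and 23 of 47 near Ebf3 did, against 49.4% of the whole day 3 list. Of these day 3 events, 0 near Onecut1, 19 near Ebf1 and 3 near Ebf3 were among the 10000 highest of the list. The best ranks were 13995, 969 and 1394, and the median RPM 2.04, 2.65 and 1.76. The part of event strength in the difference between genes was not tested. Events at day 4 were mostly a subset, 79 of 90 for HOXC9 (87.8%, 79.4 to 93.0, against 81.8%) and 54 of 73 for HOXC10 (74.0%, 62.9 to 82.7, against 56.4%). The day 4 lists were called against a shallower control (4722105 reads, against 20590685 at day 3). HOXC9 at day 4 without day 3 was called at 9 sites, the highest-ranked past the end of Ebf1 at +405 kb (2.26, rank 17401), where all 4 chimeras also had an event. HOXC9 and HOXC10 went from 74085 to 44024 and from 26873 to 22027 events overall.

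In unpatterned EBs most events of both factors lay at other sites than at day 3, near these genes as in the whole lists. HOXC6 had 47 events, of which 4 had a day 3 event (8.51%, 3.36 to 19.9, against 7.38%), 3 of these near Ebf1 and 1 near Onecut2. HOXC9 had 143, of which 53 had one (37.1%, 29.6 to 45.2, against 23.5%), a share above that of the list. Of the HOXC9 events at day 3, 55 of 175 had an EB event (31.4%, 25.0 to 38.6, against 40.4%), a share below that of the list. The HOXC9 share was 26 of 62 near Ebf1 and 12 of 26 near Ebf3, and 3 of 11 near Onecut1. In proportion to their lists the EB libraries had fewer events here, 0.105% and 0.111% of events against 0.302% and 0.236% at day 3. By merged site, 31 of the 455 carried HOXC9 at all 3 stages, 19 of them near Ebf1 and 0 near Onecut1, and 7 carried HOXC6 at all 3 stages. Genome counts of these stage classes are not given here.

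**Figure D5:**
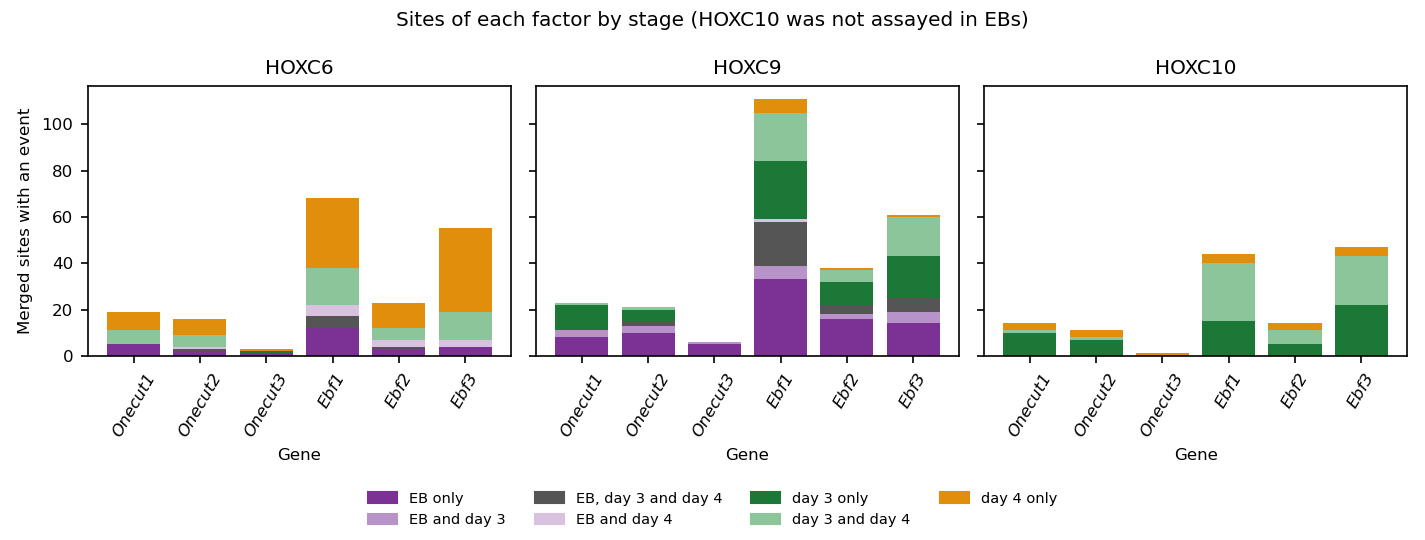
Merged sites of each gene divided by the stages at which HOXC6, HOXC9 or HOXC10 was called (HOXC10 has no EB list); bar length is the number of sites. For HOXC6 the day 4 only class is the longest (93 sites over the 6 genes, 36 near Ebf3), and for HOXC9 the EB only class (86) and the day 3 only class (69).

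MEIS was called at 83 of the 455 sites in at least 1 line, and at 25875 of the 377270 sites in the genome. Of the 83, 76 also carried a HOX event in some list, as did 445 of all 455 sites. Events numbered 30 in the Hoxc6 line, 75 in the Hoxc9 line and 50 in the Hoxc10 line, in proportion to lists of 8219, 22749 and 12982 events (0.365%, 0.330% and 0.385%). All 3 lines shared 18 sites, 10 near Ebf1 and 5 near Ebf3. MEIS was found in the Hoxc9 line alone at 31 sites, 13 near Ebf1 and 9 near Ebf3. Genome counts of these classes are not given here. Of the 75 events of the Hoxc9 line, 48.0% had one in the Hoxc10 line (37.1 to 59.1, against 44.0%). With the Hoxc6 line it was 30.7% (21.4 to 41.8, against 26.9%), so both shares were near those of the list. The strongest of the 31 sites, 169 kb into Ebf1 (chr11:44786420-44786520), is shown for its line difference.
Ebf1 +169 kb: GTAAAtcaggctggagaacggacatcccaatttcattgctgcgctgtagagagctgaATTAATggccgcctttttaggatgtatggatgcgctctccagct
There MEIS had 26.7 RPM in the Hoxc9 line (rank 879) and no event in the Hoxc6 and Hoxc10 lines. The HOX values at day 3 were 6.62 for HOXC9 and 2.23 for HOXC10, with no event for HOXC6, so the MEIS list with the event was the one from the line induced for the factor with the most reads there of the 3. Each MEIS list is 1 library and the difference between lines has no replicate check. The window holds 2 TAAT overlapping in ATTAAT and 1 TTTAC, but no TGACAG.

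HOX events were set against MEIS in the line induced for the same Hox gene, which was V5-tagged, whereas the HOX libraries came from Flag-tagged lines except for 1 of HOXC10. The share with MEIS was above that of the list for HOXC9 (54 of 175, 30.9%, 24.5 to 38.1, against 20.8%). It was not for HOXC6 (15 of 54, 27.8%, 17.6 to 40.9, against 24.9%) or HOXC10 (28 of 116, 24.1%, 17.3 to 32.7, against 25.8%), whose intervals include the list value. HOXC6 events with MEIS of the Hoxc9 line numbered 19 of 54 (35.2%, 23.8 to 48.5, against 29.8%). Ebf3 (18 of 47) and Ebf1 (23 of 78) gave most of the HOXC9 events with MEIS of the Hoxc9 line. HOXC9 events with MEIS of the Hoxc10 line numbered 33 of 175 (18.9%, 13.8 to 25.3, against 11.0%). The excess for HOXC9 was thus not limited to MEIS of the matched line. Between lines, 22 of 30 MEIS events of the Hoxc6 line had one in the Hoxc10 line (73.3%, 55.6 to 85.8, against 72.6%). The MEIS lists ranked sites of Ebf1 and Ebf3 high: 278th at Ebf1 +75.1 kb in the Hoxc9 line, and 346th and 502nd at Ebf3 +106 kb in the Hoxc10 and Hoxc6 lines.

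PBX had 1 event in the Hoxc9 line (Ebf1, −5.70 kb) and 2 in the Hoxc10 line (Onecut3, −47.2 kb, and Ebf3, +1.12 kb), with 0.850 to 1.09 RPM. None coincided with a HOX or MEIS site. The PBX lists were the shortest of the series, 1165 and 848 events, with signal fractions of 0.009 and 0.008, although the libraries held 23333969 and 21642395 reads. With so little signal, the lists cannot show that PBX was absent from the other sites.

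The letters searched for were found at the sites of the 6 genes about as often as in the lists as a whole, with some exceptions. Windows of 50 bp to each side were searched on both strands for TAAT (held by 72.4% of all merged sites of the genome), TTTAT (61.3%), TTTAC (30.3%), TGATTTAT, which contains TTTAT (3.38%), and the MEIS core TGACAG (8.37%). At the 455 sites the shares were 72.7% (68.5 to 76.6), 54.7% (50.1 to 59.2), 24.8% (21.1 to 29.0), 3.08% (1.84 to 5.10) and 10.5% (8.05 to 13.7). TTTAT and TTTAC were thus found at a smaller share of these sites than of all sites, and the other 3 were within their intervals. The 2 sets hold the lists in different proportions. HOXC13 sites without another full-length factor were 32 of the 455 and 83759 of the 377270. In the genome such sites held TTTAT in 80.9% and TTTAC in 45.0%. The part of this in the difference was not tested. By list, TAAT was near 74.1% of HOXC6 events (against 71.1%), TTTAT near 60.0% of HOXC9 events (against 62.4%) and TTTAC near 44.2% of HOXC13 events (against 42.8%), with intervals that include the list value in each case. Over the HOX and MEIS lists the interval left out the list value in 7 of 95 pairs of list and motif. It lay above for TAAT, TTTAT and TTTAC at HOXC10 events of day 4 (72.6%, 53.4% and 30.1%, against 54.6%, 40.1% and 20.2%) and for TAAT at MEIS events of the Hoxc10 line (74.0%, against 58.7%). It lay below for TTTAT at HOXC10:C13.1 and HOXC10:C13.2 events (81.0% and 78.1%, against 89.2% and 90.0%) and for TGATTTAT at HOXD9 events (3.98%, against 8.75%).

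The classes of sites differed in letters mostly as they did elsewhere. TTTAT was near 59.2% of HOXC9 and HOXC10 sites without HOXC6 (45.2 to 71.8, against 63.5% of such sites in the genome) and 63.9% of HOXC9 sites without the other 2 (52.4 to 74.0, against 68.7%). At the 38 sites of all 3 factors it was 65.8% (49.9 to 78.8), above the 46.6% of such sites in the genome, as in the Ebf1 site at +39.8 kb printed above with 2 TTTAT. HOXC10 sites without HOXC9 had TAAT in 23 of 26 (88.5%, 71.0 to 96.0, against 71.7%), an interval that just includes the genome value. Sites of the HOXC10:C13 chimeras without HOXC13 had TAAT in 37 of 39 (94.9%, 83.1 to 98.6, against 92.7%), the Onecut1 site at +32.6 kb with its 5 TAAT among them. MEIS sites held TGACAG in 16 of 83 (19.3%, 12.2 to 29.0), the same share as all MEIS sites in the genome.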

How the data were processed

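ChIP-seq was measured in 42 samples (23 groups, from the labels). The authors aligned reads to mm10 with Bowtie 1.0.1, used Picard 2.8.2 per the labels, and called events with MultiGPS on pooled replicates against a control, keeping those with a q-value under 0.001. The deposited lists give, per event, an estimated count of reads in signal and control, a log2 fold and a log2 significance value (read here as a q-value, although the headers do not say whether it is corrected), and a deposited browser track with a capped score that was not used. Further deposited columns hold the authors' edgeR 3.22.5 comparisons between conditions (log2 folds and p-values), which were not used. From the lists, events were assigned to genes, merged (100 bp), ranked by estimated count and scanned for short motifs in the GRCm38 sequence with Python 3.11.15, numpy 2.4.6, pandas 2.3.3 and scipy 1.17.1. Headers of the day 4 lists name other days, and the groups follow the labels. An event was shared if another list had one within 100 bp. The scripts were tested on simulated data. All 1812 deposited sequences in the windows matched the genome used.

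The genes, motifs and comparisons were chosen with earlier results of these data known. Named sites were, per gene, the site in the most lists and the one with the best rank of a full-length factor at day 3, and over all 6 genes the best-ranked site of each difference between lists (HOXC9 without HOXC10, HOXC6 without HOXC9 or HOXC10, HOXC13 alone, a stage without day 3, a HOXC10:C13 chimera without HOXC13, MEIS in 1 line), plus every PBX site. One site that this rule names is not reported here. Sites described for being strongest in a list, in all 7 factors or near a start were added with their values seen. The alternatives were flanks of 0 and 100 kb, merging and sharing at 50 and 200 bp, a q-value of 1e-06, the top 10000 events, lists of equal length, motif windows of 25 and 100 bp, other motifs and leaving out the HOXC13 list.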

Additional observations from a re-analysis of the deposited data

How the results depend on the processing

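No paired analysis was possible because replicates were pooled before events were called. For the same reason no replicate could be left out. Moved means here that a share left its own 95% interval. A flank of 100 kb (538 sites), no flank (341), merging at 50 bp (545) or 200 bp (399), the stricter q-value (362) and leaving out the HOXC13 list (443) kept the number of sites within 1.5 times 455, and the top 10000 events of each list gave 119. The Onecut counts depended on the flank: without it Onecut1, Onecut2 and Onecut3 had 15, 19 and 2 sites, with 100 kb Onecut1 had 69, and the stricter q-value left 9 for Onecut3. No share moved with a flank of 100 kb. Limiting both lists to their top 10000 events moved 23 of 28 shares by reads and 21 by q-value. This limit both shortens the lists and keeps their highest-ranked events, and the part of each was not tested. Both values follow where both moved. They were 39.5% and 38.3% for HOXC10 with HOXC9, 64.3% and 69.0% for HOXC9 with HOXC10, 68.8% and 66.7% for HOXC6 with HOXC8, 69.7% and 76.7% for HOXC8 with HOXC6, 34.4% and 39.4% for HOXC6 with HOXC9, 42.9% and 48.3% for HOXC9 with HOXC6, and 3.57% and 3.45% for HOXC9 with HOXC13. They were 52.0% and 51.7% for HOXA9 and 44.0% and 33.3% for HOXD9 with HOXC9, 77.8% and 79.3% for HOXC6 day 4 with day 3, 16.7% and 16.7% for HOXC13:C10.1 and 4.55% and 4.76% for HOXC13:C10.2 with HOXC13, and 77.8% and 77.8% and 79.5% and 81.0% for these with HOXC10. Both reverse chimeras had 0% with HOXC13, and HOXC10:C13.2 had 60.0% and 60.0% with HOXC10. With MEIS they were 46.4% and 55.2% (HOXC9, Hoxc9 line), 28.6% and 31.0% (HOXC9, Hoxc10 line) and 18.8% and 21.2% (HOXC6, Hoxc9 line). By reads alone, HOXC13 with HOXC9 moved to 33.3%, HOXC9 day 4 with day 3 to 76.2% and HOXC10:C13.1 with HOXC10 to 71.4%, and by q-value alone HOXC10 day 4 with day 3 to 61.8%. With the partner list at equal length, shares moved to 40.5% (HOXC10 with HOXC9), 74.1% (HOXC6 with HOXC8), 50.0% (HOXC6 with HOXC9), 19.4% (HOXC9 with HOXC13), 75.6% (HOXC9 day 4 with day 3) and 28.6% (HOXC10:C13.1 with HOXC13). The stricter q-value in both lists moved HOXC6 with HOXC8 to 100%, HOXC6 with HOXC9 to 91.2%, and HOXC9 with MEIS of the Hoxc9 and Hoxc10 lines and HOXC10 with MEIS of the Hoxc10 line to 23.7%, 10.07% and 12.9%. Sharing within 200 bp gave 98.1% for HOXC6 with HOXC8 and 26.0% for HOXC13:C10.2 with HOXC13, and within 50 bp 67.9% for HOXA9 with HOXC9. TTTAT at HOXC9, TAAT at HOXC6 and TTTAC at HOXC13 events moved to 45.7%, 50.0% and 26.7% in windows of 25 bp and to 76.0%, 90.7% and 57.0% in windows of 100 bp. TTAT at HOXC9 gave 77.7%, TAATTA at HOXC6 5.56% and TTTACG at HOXC13 2.33%, and the top 10000 events gave 50.0% (HOXC9) and 33.3% (HOXC13, of 3 events). With the top 10000 events the higher of 2 opposite shares changed sides for HOXC9 and HOXC10, HOXC6 and HOXC8, and HOXC6 and HOXC9, and HOXC10:C13.2 went from sharing more with HOXC13 to sharing more with HOXC10. Pooled lists, 1 library for each cofactor list and a shallow day 4 control limit what these counts can show.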

Other observations

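Among 20 related genes (Ebf4, Cux1 and Cux2 of the same families, and other neuronal transcription factors), the median was 26.2 sites per 100 kb, and 19 of the 20 lay above the 11.7 of coding genes. Mnx1, a homeodomain factor of motor neurons, had the highest density, 43 sites or 40.8 per 100 kb, denser than 99.4% of coding genes and below Ebf3. Its events at day 3 numbered 14 for HOXC9, 12 for HOXA9, 11 for HOXC10 and 4 for HOXC6. Ebf4, the remaining Ebf gene, had the lowest density, 12 sites or 6.84 per 100 kb, which 22.5% of coding genes fell short of. Of the full-length factors at day 3, HOXC13 had 4 events near Ebf4, HOXC9 and HOXD9 had 1 each, and the other 4 had 0.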
